A study of Mus musculus with 2 samples.

Results

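Long non-coding genes that host small RNAs in their transcripts were examined in the RNA that co-purified with telomeric chromatin. The set was fixed by name as 9 mouse symbols (Gas5, Snhg1, Snhg3, Snhg5, Snhg6, Snhg7, Snhg8, Snhg12 and Mir17hg), and every transcript listed under one of them was taken. Of the 9 symbols, 6 were listed, with 32 transcripts among the 48876 transcripts and 24117 gene symbols of the files. Snhg1, Snhg7 and Snhg8 had no transcript under these symbols, so only the snoRNAs of their introns could be examined.

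The data came from enChIP-RNA-Seq of Ba/F3, a mouse hematopoietic cell line that the labels assign to strain C3H. One library was made from cells stably expressing 3xFN-Tel-TAL, a FLAG-tagged TAL protein with a nuclear localization signal that binds telomeric repeats. The control library came from cells expressing 3xFNLDD, FLAG-tagged LexA. Both were crosslinked with formaldehyde, sonicated and immunoprecipitated with anti-FLAG M2 antibody, and per the labels 60 ng of RNA entered each library. The paper instead gives larger and unequal amounts of purified RNA, with more for 3xFNLDD. Whether each line was a clone or a pool is not given in the sources used here. The 3xFNLDD library, called the control below, held 7206183 reads, and the 3xFN-Tel-TAL library, called the Tel-TAL library, held 9774844. Each condition had a single library and thus no replicate check. Ranges in parentheses are 95% intervals unless named otherwise. They set one library against the other, not the conditions, and cover counting error only. PCR reads are not independent molecules, so the intervals may be too narrow even for that error. A larger share of an RNA in the isolate and a higher level of it in the cells cannot be told apart, because RNA from before the immunoprecipitation was not analysed here. The hematopoietic identity was visible mainly in the interleukin-3 receptor beta genes Csf2rb (583 reads in the control, 1052 in the Tel-TAL library) and Csf2rb2 (751 and 849). Myb (69 and 141), Ptprc (44 and 67) and Il3ra (17 and 68) had fewer reads. Of the 8 hematopoietic markers sought, 7 were listed, Spi1 being absent, and the lowest, Kit, had 2 reads in each library. Kit and Cd79b (4 and 2 reads) were no higher than the markers of other tissues. The 4 listed markers of other tissues had 5 to 14 reads in the control and 0 to 5 in the Tel-TAL library. The hematopoietic markers summed to 204.0 RPM in the control and 223.1 RPM in the other library, and those of other tissues to 4.72 and 0.921 RPM. The part of either in the results was not tested.

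Most small nucleolar RNAs (snoRNAs) of mammals are cut out of the introns of longer transcripts. In genes such as Gas5 and the Snhg (small nucleolar RNA host gene) series, the introns carry the conserved snoRNAs, while the spliced exons encode no protein known to be needed. The C/D snoRNAs guide ribose methylation and the H/ACA snoRNAs guide pseudouridylation, mainly of ribosomal RNA. Several host genes begin transcription within a run of pyrimidines, the terminal oligopyrimidine (TOP) feature shared with ribosomal protein genes, and their spliced RNA is degraded on ribosomes by nonsense-mediated decay. Mir17hg is different, since its primary transcript carries the hairpins of the miR-17-92 microRNAs, which act in lymphoid cell growth downstream of Myc.

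RefSeq (GRCm38.p6, the build the labels name as GRCm38) places Gas5 at chr1:161034601-161038539, Snhg6 at chr1:9942025-9944118, Snhg5 at chr9:88521052-88522897 and Mir17hg at chr14:115044390-115046728. Snhg12 (chr4:132308678-132311024) and Snhg3 (chr4:132351933-132353686) are neighbours on chromosome 4. The stretches around the annotated starts show how far the hosts share the pyrimidine run. Each holds 10 bases before and 20 bases from the RefSeq start, 5′ to 3′ on the gene's own strand, and capitals mark the longest run of a C followed by at least 4 pyrimidines.
Gas5, chr1:161035156-161035185, plus strand: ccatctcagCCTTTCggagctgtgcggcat
Snhg12, chr4:132308668-132308697, plus strand: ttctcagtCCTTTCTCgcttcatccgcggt
Snhg7, chr2:26640225-26640254, minus strand: gatgctcggCCTCTCggcagccatggcggc
Snhg8, chr3:123508317-123508346, minus strand: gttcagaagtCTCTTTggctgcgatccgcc
Snhg5, chr9:88522878-88522907, minus strand: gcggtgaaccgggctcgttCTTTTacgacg
Snhg3, chr4:132353667-132353696, minus strand: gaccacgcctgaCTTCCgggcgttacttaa
Snhg1, chr19:8723477-8723506, plus strand: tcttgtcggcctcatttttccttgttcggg

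The run began within 2 bases of an annotated start in Gas5, Snhg7, Snhg8 and Snhg12. It began 2 bases after the start in Snhg3 and 9 bases after it in Snhg5. The window of Snhg1 held no run that met this definition. It does hold an unbroken stretch of pyrimidines, tttttcctt, which starts with T and so was not counted. Such a run, searched on the gene's strand only, was present in 6 of 9 windows of the 8 hosts that the RefSeq table holds, and in 35.8% of all 32851 windows of the same length. Snhg6 was not in that table. The Gas5 window shown is that of an annotated start downstream of chr1:161034601, the first base given above for Gas5. The window at that first base had no run, and neither had that of Mir17hg. The telomeric repeat unit TTAGGG, or its complement CCCTAA, was found in 1 of the 9 windows reaching from 250 bases before to 50 after the start, that of Snhg1 (both strands searched), and in 10.6% of all windows. The 6-base match is a description and says nothing of binding.

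The RefSeq record of Mir17hg begins after the first bases of 5 of its 6 hairpins, so its annotated start is not the start of the primary transcript. The mature microRNAs identify what this host carries. They are shown with the seed (bases 2 to 8) in capitals.
miR-17-5p, chr14:115043684-115043706: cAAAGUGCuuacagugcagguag
miR-20a-5p, chr14:115044183-115044205: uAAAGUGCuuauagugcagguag
miR-18a-5p, chr14:115043867-115043889: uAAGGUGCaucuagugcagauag
miR-19a-3p, chr14:115044048-115044070: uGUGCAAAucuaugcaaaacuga
miR-19b-3p, chr14:115044358-115044380: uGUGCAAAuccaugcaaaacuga
miR-92a-3p, chr14:115044476-115044496: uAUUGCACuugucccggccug

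The 6 microRNAs fall into 4 seeds, with miR-17-5p and miR-20a-5p sharing 1 and miR-19a-3p and miR-19b-3p sharing another. None of the 6 hairpins had a row of its own in the files, so Mir17hg was measured only through its long transcript.

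Host RNA was rare in both isolates. The 6 hosts together had 303 reads in the control, 0.00420% of the library, and 726 reads in the Tel-TAL library, 0.00743%. For each gene the reads of all its transcripts were summed, and the log2 ratio is that of RPM (the count scaled to the total reads of its library) in the Tel-TAL library over that in the control. The RPM ratio was above 1.4 for 5 of the 6 hosts and below 1/1.4 for 0. Across all 12517 genes that reached 20 reads when both libraries were added, 41.1% were above 1.4-fold and 11.5% below 1/1.4-fold. The median log2 ratio was 0.79 for the 6 hosts and 0.37 for all genes, so the hosts' median lay 0.43 above that of all genes. Among the 5445 genes with as many reads as the hosts, between 85 and 392, 43.8% were above 1.4-fold, 5.67% below 1/1.4-fold, and the median was 0.42. The lower 95% bound exceeded 0 for 4 of the 6 hosts, for 34.3% of all genes and for 45.2% of the genes of like depth.

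These counts depend on the scaling. For its list of non-coding RNAs above 1.4-fold, the study used a ratio of read counts, with no scaling to the library stated. Its separate search for long non-coding RNAs scaled the reads to RPM and set other cutoffs. By a ratio of unscaled counts, added after the data were seen, 6 of 6 hosts and 70.3% of all genes were above 1.4-fold. TMM (trimmed mean of M values), which sets the bulk of the RNAs level, moved every log2 ratio by -0.37 and left 2 of 6 hosts above 1.4-fold, against 20.4% of all genes and 18.4% of those of like depth. With TMM 0 hosts were below 1/1.4-fold, against 22.4% and 14.7%. With TMM 5 of the 6 hosts were above 0, the exception being Snhg12, and 3 had a lower 95% bound above 0. No share of all genes is given for either count. The TMM median was -0.0013 for all genes and 0.047 for those of like depth, so a value above 0 was common. The excess of the hosts' median over that of all genes is the same under either scaling.

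Gas5, a growth-arrest RNA whose introns hold C/D snoRNAs, was the most deeply read host. It had 114 reads (15.8 RPM) in the control and 278 reads (28.4 RPM) in the Tel-TAL library. The log2 ratio was 0.85 (0.53 to 1.17), higher than in 79.3% of all genes, and 0.48 with TMM, just short of 1.4-fold.

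Mir17hg, the microRNA host, had a single listed transcript with 53 reads (7.35 RPM) in the control and 136 reads (13.9 RPM) in the Tel-TAL library. Its log2 ratio was 0.92 (0.45 to 1.41), and 0.55 with TMM. This host thus lay close to Gas5, with a difference of 0.073 (-0.50 to 0.66).

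Snhg5, host of the C/D snoRNAs of the U50 family, had the highest ratio of the 6. It had 43 reads (5.97 RPM) in the control and 135 reads (13.8 RPM) in the Tel-TAL library. The log2 ratio was 1.21 (0.71 to 1.74), which exceeded 90.5% of all genes, and 0.84 with TMM. Snhg5 and Mir17hg were the hosts above 1.4-fold under both scalings. Snhg5 alone was above 2-fold by library totals, a threshold for which no share of all genes is given.

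**Figure D1:**
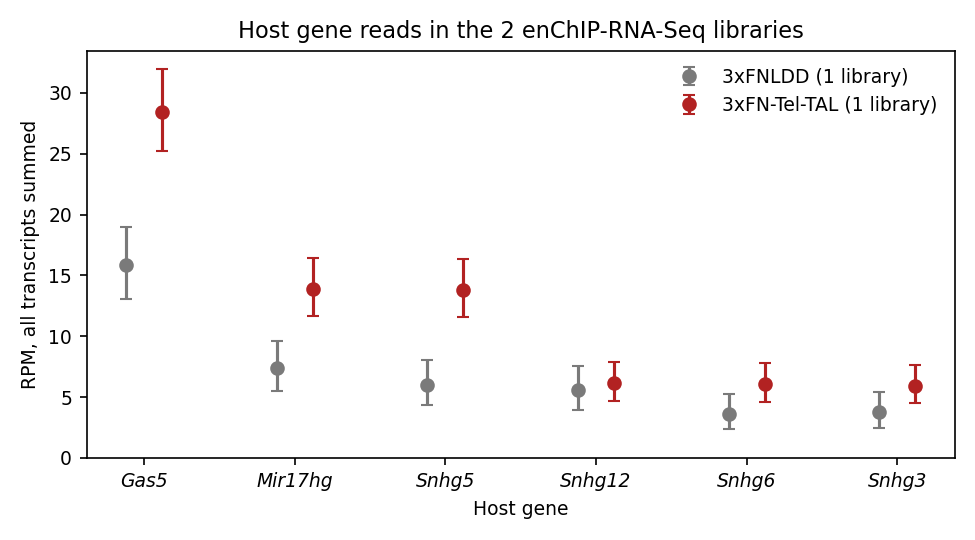
RPM of each host gene (all transcripts summed) in the 3xFNLDD library (grey) and the 3xFN-Tel-TAL library (red), with exact Poisson 95% intervals for counting error as bars. Gas5 stands highest, at 15.8 RPM in the 3xFNLDD library and 28.4 RPM in the 3xFN-Tel-TAL library.

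Snhg6, whose intron carries Snord87, had 26 reads (3.61 RPM) in the control and 59 reads (6.04 RPM) in the Tel-TAL library. Its log2 ratio was 0.74 (0.054 to 1.47). Snhg3, which hosts the U17 snoRNAs Snora73a and Snora73b, had 27 reads (3.75 RPM) and 58 reads (5.93 RPM), a log2 ratio of 0.66 (-0.019 to 1.38). At this depth the direction for Snhg3 was not resolved by counting error alone, and with TMM the log2 ratios were 0.37 for Snhg6 and 0.29 for Snhg3.

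Snhg12, host of 3 H/ACA snoRNAs and Snord99, was lowest. It had 40 reads (5.55 RPM) in the control and 60 reads (6.14 RPM) in the Tel-TAL library. Its log2 ratio of 0.15 (-0.46 to 0.76) exceeded 35.0% of all genes and turned to -0.22 with TMM. A difference for Snhg12 was therefore not detectable at this depth.

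**Figure D2:**
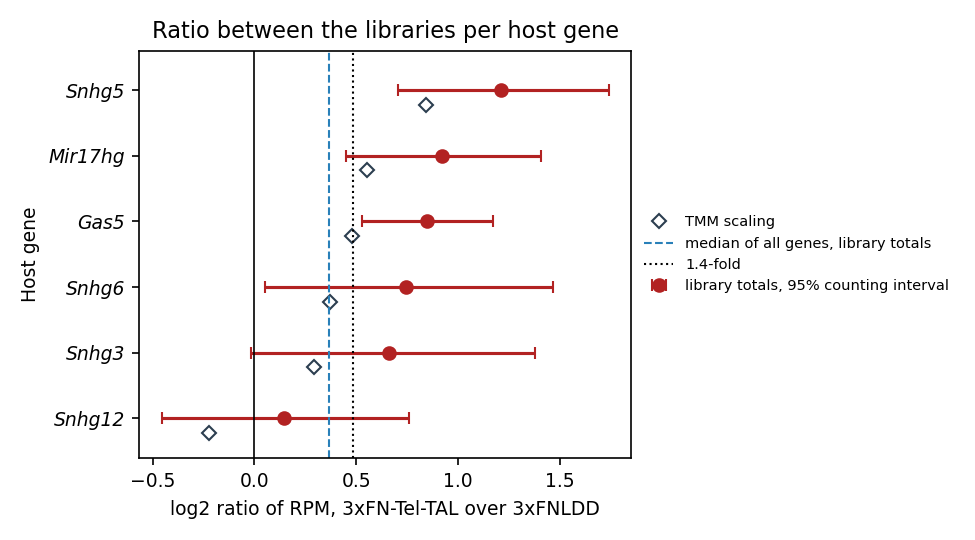
Log2 ratio of RPM for each host gene by library totals (red points, bars are 95% counting intervals) and with TMM scaling (open diamonds), with the median of all genes (0.37, dashed) and 1.4-fold (dotted). The order runs from Snhg5 at 1.21 to Snhg12 at 0.15. Snhg12 alone is below 0 with TMM, where the median of all genes is -0.0013.

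Differences between hosts do not depend on the scaling. In the order Snhg5, Mir17hg, Gas5, Snhg6, Snhg3 and Snhg12, the intervals of the differences between neighbours all held 0. Of the 15 pairs, 1 had an interval without 0, with no allowance made for the number of pairs. That pair was the highest and the lowest host, where Snhg5 exceeded Snhg12 by 1.07 (0.25 to 1.87). Snhg5 exceeded Gas5 by 0.36 (-0.24 to 0.99).

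**Figure D3:**
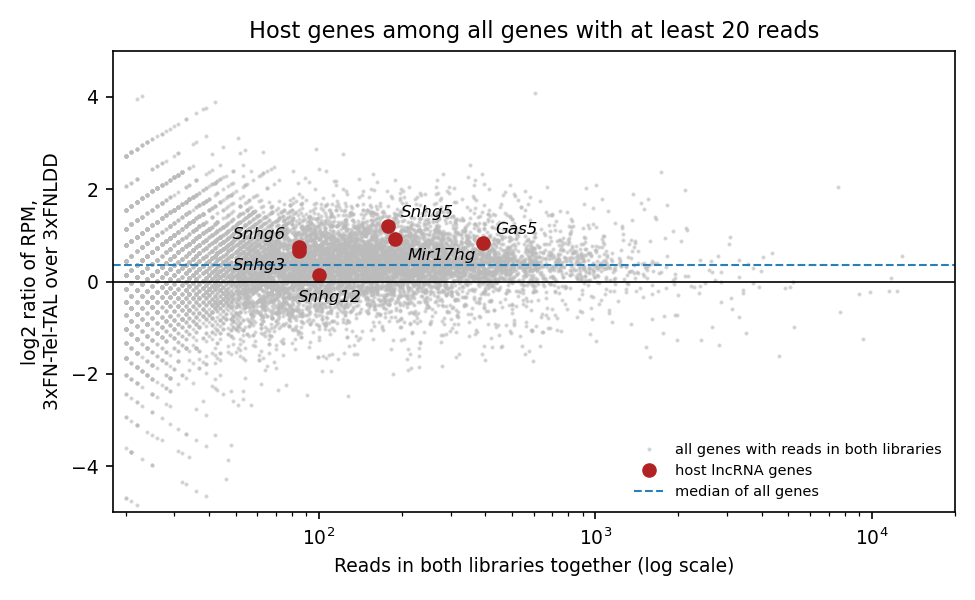
Log2 ratio of RPM against reads in both libraries together (log scale) for 12469 genes with reads in both libraries (grey) and the 6 host genes (red), leaving out 23 genes beyond the axes. Every host except Snhg12 lies above the dashed median of 0.37, within the cloud of other genes of the same depth.

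Single transcripts give a finer view, though how reads shared by several transcripts of a gene were counted is not given in the sources used here. Of the 32 transcripts, 11 reached 20 reads when both libraries were added. Of these 11, 6 were above 1.4-fold and 0 below 1/1.4-fold, against 44.2% and 11.1% of all 16468 transcripts of that depth. With TMM the number above 1.4-fold was 5, against 24.6%, and 1 was below 1/1.4-fold, against 22.6%. The median log2 ratio of the 11 was 0.70 and that of all transcripts 0.39. The 21 shallower transcripts had 1 to 16 reads each and together 41 reads in the control and 82 in the Tel-TAL library.

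The deepest Gas5 transcript in both libraries was ENSMUST00000161229. It has an exon of 2382 bases that runs unspliced through 6 of the 9 snoRNAs annotated in the gene, so that its exons cover 75.8% of its span. This transcript had 34 reads in the control and 130 reads in the Tel-TAL library, a log2 ratio of 1.50 (0.94 to 2.08), and 1.13 with TMM. Its share of all Gas5 reads was 29.8% (21.6 to 39.1) in the control and 46.8% (40.8 to 52.8) in the Tel-TAL library. Per length it stood at 1.85 RPM per kb in the control and 5.20 in the Tel-TAL library. The other Gas5 transcripts with at least 20 reads stood at 2.18 to 3.38 in the control and 2.57 to 6.37 in the Tel-TAL library. Per length it was thus the lowest of them in the control.

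The other 13 Gas5 transcripts together had 80 and 148 reads. The log2 ratio of ENSMUST00000161229 exceeded theirs by 1.05 (0.34 to 1.77), a contrast chosen after the values were seen. ENSMUST00000159890, with 9 exons, had 26 reads in the control and 41 in the Tel-TAL library, a log2 ratio of 0.22 (-0.53 to 0.99). ENSMUST00000159119, spliced across all the snoRNAs with 10 exons, had 14 and 23 reads and a log2 ratio of 0.28 (-0.74 to 1.35).

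The Gas5 transcripts differ in how much snoRNA sequence their exons hold, and its relation to the ratio was not tested. ENSMUST00000065709 ends in an exon of 422 bases that holds no snoRNA but covers a stretch that ENSMUST00000159119 splices out. It had 10 reads in the control and 33 in the Tel-TAL library, a log2 ratio of 1.28 (0.23 to 2.47). Its share of the Gas5 reads was 8.77% and 11.9%. ENSMUST00000159037, whose first exon holds 1 snoRNA, had 10 and 16 reads and a log2 ratio of 0.24 (-0.99 to 1.54), and ENSMUST00000159890 above holds 2 snoRNAs. Over all transcripts with at least 20 reads, the median log2 ratio was 0.43 for the 2061 annotated as retained introns and 0.40 for the 11031 protein-coding ones. The Gas5 transcripts are annotated as non-coding and belong to neither class, so these medians do not describe them. The gene Zbtb37 overlaps the 5′ end of the Gas5 locus on the opposite strand, and its deepest such transcript had 18 and 16 reads.

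**Figure D4:**
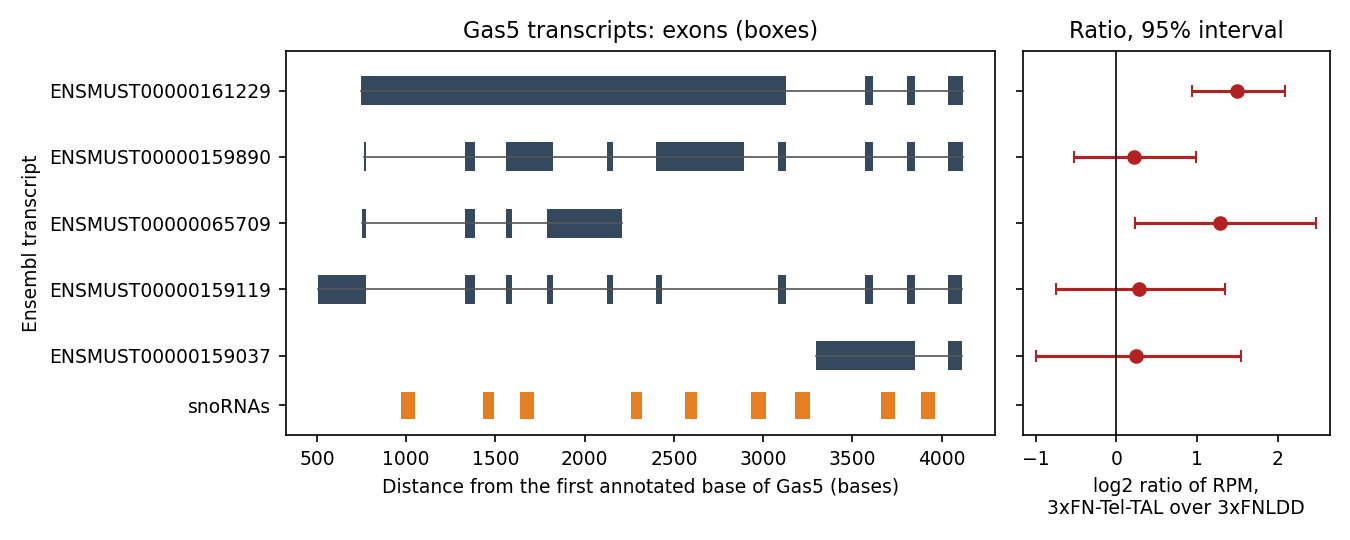
Left, exons (dark boxes) of the 5 Gas5 transcripts with at least 20 reads and the 9 annotated snoRNAs (orange), by distance in bases from the first annotated base of the gene. Right, their log2 ratios of RPM with 95% counting intervals, where ENSMUST00000161229 (1.50) and ENSMUST00000065709 (1.28) stand above the other 3, at 0.22 to 0.28.

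In Snhg3, ENSMUST00000141090 had 14 reads in the control and 40 in the Tel-TAL library, a log2 ratio of 1.07 (0.17 to 2.07). The spliced ENSMUST00000136127 had 12 and 14 reads, a log2 ratio of -0.22 (-1.44 to 1.03). The difference of 1.29 (-0.30 to 2.87) was not resolved at this depth. An exon of ENSMUST00000141090 covers 159 of the 205 bases of Snora73a, and the part of snoRNA reads in its count was not tested.

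Most Snhg12 reads fell on ENSMUST00000126380, whose exons hold Snora61, with 30 reads in the control and 38 in the Tel-TAL library and a log2 ratio of -0.099 (-0.83 to 0.64). ENSMUST00000128000 starts after Snora16a and is spliced across Snora44, Snora61 and Snord99. It had 2 and 14 reads, falls short of 20 and is named because of its values. Its share of the Snhg12 reads was 5.0% (0.611 to 16.9) in the control and 23.3% (13.4 to 36.0) in the Tel-TAL library.

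In the remaining hosts 1 transcript held most of the reads. In Snhg5, ENSMUST00000180563 held 40 of the 43 reads in the control and 131 of the 135 in the Tel-TAL library, a log2 ratio of 1.27 (0.75 to 1.82). In Snhg6, ENSMUST00000182819 had 19 and 42 reads and a log2 ratio of 0.70 (-0.11 to 1.57). The Mir17hg transcript ENSMUST00000134140 has 2 exons, and the longer, of 3457 bases, contains all 6 hairpins. Per length the transcript stood at 2.08 RPM per kb in the control and 3.93 in the Tel-TAL library.

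Few of the hosted small RNAs were listed. Of 36 snoRNAs and microRNAs assigned to the 9 hosts, 11 had a row under their own symbol. None of the 10 C/D snoRNAs assigned to Gas5 did, namely Snord44, Snord47, Snord74, Snord75, Snord76, Snord77, Snord78, Snord79, Snord80 and Snord81. Nor did Snord50a and Snord50b of Snhg5, or Snord25, Snord26, Snord27, Snord28, Snord29, Snord30 and Snord31 of Snhg1. Snord87 of Snhg6 had 2 reads in the control and 4 in the Tel-TAL library. The 9 snoRNAs annotated within Gas5 measure 60 to 84 bases, and 1 of them was listed as Gm22357, with 2 reads in the control and 0 in the Tel-TAL library.

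Snhg3 and its U17 snoRNAs both had enough reads to be compared. Their reads may not be separate, since an exon of ENSMUST00000141090 covers most of Snora73a. Snora73a and Snora73b, which act in processing of the ribosomal RNA precursor and are near-identical copies, had 844 reads together in the control and 2323 in the Tel-TAL library, a log2 ratio of 1.02 (0.91 to 1.14). That is 31.3 snoRNA reads per host read in the control and 40.1 in the Tel-TAL library. The snoRNAs exceeded their host by 0.36 (-0.37 to 1.05), so no difference between snoRNA and host was detectable at the host's depth.

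The long non-coding gene Gm17300 is annotated on the opposite strand of Snhg3, with exons over all 205 bases of Snora73b and 175 of the 205 bases of Snora73a. It had 843 reads in the control and 2245 in the Tel-TAL library, a log2 ratio of 0.97 (0.86 to 1.09), close to the summed counts of the snoRNAs. The library kit does not mark strand, so reads of Gm17300 and of the snoRNAs cannot be told apart where they overlap. The exons of Gm17300 measure 1527 bases, and how its reads divide between the overlap and the rest was not examined.

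For Snhg12, its 4 small RNAs had 50 reads in the control and 105 in the Tel-TAL library, a log2 ratio of 0.63 (0.13 to 1.15). Most came from the H/ACA snoRNAs Snora61, with 22 and 60 reads and a log2 ratio of 1.01 (0.28 to 1.78), and Snora16a, with 19 and 38 reads and a log2 ratio of 0.56 (-0.27 to 1.44). The third H/ACA snoRNA, Snora44, lay below the host at a log2 ratio of -0.63 (-2.33 to 1.03) from 8 and 7 reads, and Snord99 had 1 and 0 reads. Summed, the small RNAs exceeded Snhg12 by 0.49 (-0.32 to 1.29). Here too the reads may not be separate, since the exons of ENSMUST00000126380 hold Snora61 and 69 of the 74 bases of Snord99. In both hosts that could be compared the summed snoRNA ratio was the higher, but neither interval excluded 0. Against its deepest transcript, ENSMUST00000141090 at 1.07, the direction turned for Snhg3. Across the files the median log2 ratio was 0.93 for the 76 snoRNAs with at least 20 reads and 0.40 for protein-coding transcripts.

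Hosts without a row were represented by their snoRNAs. Snord22, from Snhg1, had 120 reads in the control and 221 in the Tel-TAL library, a log2 ratio of 0.44 (0.11 to 0.77). Snora24, from Snhg8, had 39 and 87 reads, a log2 ratio of 0.72 (0.16 to 1.30). The snoRNAs of Snhg7, Snora17 and Snora43, had 3 and 8 reads together.

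**Figure D5:**
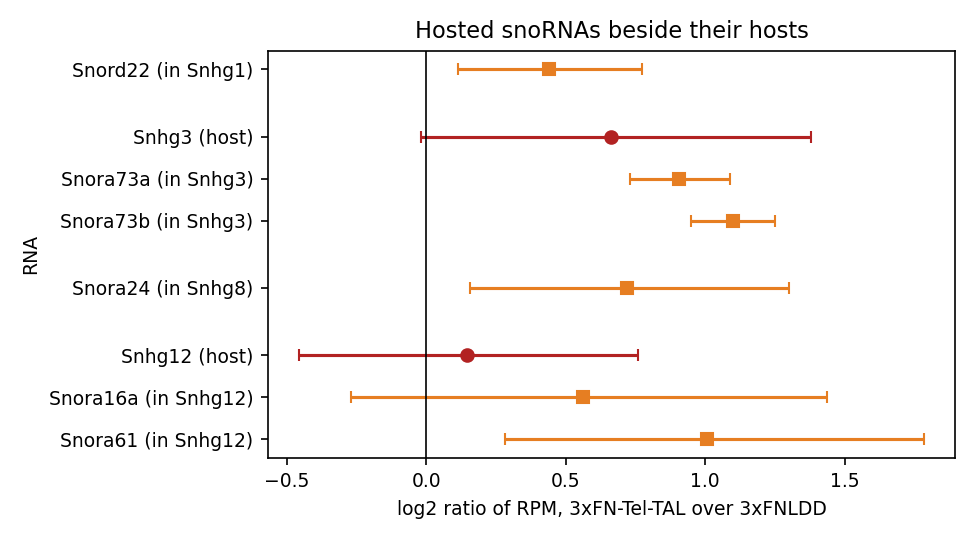
Log2 ratio of RPM with 95% counting intervals for the hosted snoRNAs with at least 20 reads (orange squares) and for their hosts where listed (red circles). Snora73a, Snora73b, Snora16a and Snora61 lie to the right of their hosts, with host intervals that reach below 0.

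Other genes that host small RNAs were set beside these hosts. Of 8 further listed lncRNAs that host small RNAs, 4 had at least 20 reads, with a median log2 ratio of 0.12. Of these 4, 1 was above 1.4-fold and 1 below 1/1.4-fold, against 41.1% and 11.5% of all genes. With TMM 0 were above and 1 below, against 20.4% and 22.4%. Dleu2, host of miR-15a and miR-16-1, was highest, with 155 reads in the control and 321 in the Tel-TAL library and a log2 ratio of 0.61 (0.33 to 0.90). The imprinted Meg3 was lowest, with 76 and 60 reads and a log2 ratio of -0.78 (-1.29 to -0.27).

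Of 28 protein-coding genes that host snoRNAs, many of them for ribosomal proteins or translation factors, 27 were listed and had at least 20 reads. Of these 7 were above 1.4-fold and 1 below 1/1.4-fold, with a median log2 ratio of 0.29, against 41.1% and 11.5% of all genes. With TMM the balance turned to 2 above and 5 below, against 20.4% and 22.4%. Nop58, a core protein of C/D snoRNA particles, was highest, with 33 and 88 reads and a log2 ratio of 0.98 (0.38 to 1.60). Rpl23a was lowest, with 40 and 32 reads and a log2 ratio of -0.76 (-1.48 to -0.055). With TMM the medians were -0.25 for the further lncRNAs and -0.082 for the host mRNAs, against 0.43 for the 6 hosts. No test was made between these lists.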

How the data were processed

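The authors deposited, for each library, a read count per Ensembl transcript without normalization. They also deposited RPM, the count scaled to the summed reads of its library, which counts and totals gave back to within 4.75e-05 RPM. Per the submitters' processing notes, cutadapt and the build GRCm38 (mm10) were used. The aligner, the annotation release and the handling of reads shared by transcripts are not given in the sources used here.

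The libraries were joined on Ensembl ID, and groups were taken from the labels. Log2 ratios used counts and library totals without a pseudocount, with exact Clopper-Pearson 95% intervals. Differences between RNAs used the exact conditional interval of the odds ratio. Python 3.11.15 (scipy 1.17.1, pandas 2.3.3, numpy 2.4.6) was used, and edgeR 4.0.16 in R 4.3.3 gave the TMM factors. At least 20 reads in both libraries together were required. At these totals 3 reads, the limit that a count of 0 allows, equal 0.416 RPM for 3xFNLDD and 0.307 for 3xFN-Tel-TAL. Exon structure came from GENCODE M1, which is on NCBIM37, so none of its coordinates are given. It holds 24 of the 32 member transcripts, and none of Snhg5 and Snhg6. Positions and sequences came from RefSeq on GRCm38.p6.

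By rule the text names every member gene, each member transcript with at least 20 reads, the small RNAs assigned to each host, and the highest and lowest gene of each comparison list. Snhg12 ENSMUST00000128000, Gm17300, Gm22357 and Zbtb37 were added after their values were seen. The members and lists were chosen with earlier results of these data known. The computation was tested on simulated counts. No p-value is given, since there is 1 library per condition. Alternatives were other scalings (unscaled counts were added after the data were seen), a pseudocount, other minimum counts, a threshold of 2, the interval bound in place of the ratio, and the deepest transcript in place of the sum.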

Additional observations from a re-analysis of the deposited data

How the results depend on the processing

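No paired analysis was possible because each condition had a single library, which also left none to omit. By library totals 5 of 6 host genes were above 1.4-fold. The number was 2 with TMM scaling, 3 with totals that leave out the 11 transcripts above 1% of a library, 3 of 4 with at least 100 reads, 1 at a threshold of 2, and 2 when the 95% bound had to pass the threshold. It stayed at 5 with a pseudocount of 1 and with the deepest transcript of each gene, and was 6 with unscaled counts, an alternative added after the data were seen. The share of all genes above 1.4-fold was 41.1% by library totals, 20.4% with TMM and 70.3% with unscaled counts. For the other alternatives no share of all genes is given, so those counts have no reference. Of the transcripts, 6 of 11 were above 1.4-fold, against 15 of 32 with at least 1 read and a pseudocount of 1, 3 of 3 with at least 100 reads, and 2 with the 95% bound. None of the 11 was below 1/1.4-fold, against 1 with TMM scaling, 1 with the reduced totals and 5 of 32 with at least 1 read and a pseudocount of 1. Shares of all transcripts are given above only for library totals and TMM. The snoRNAs had a higher ratio than their host in 2 of 2 hosts, in 1 of 1 with at least 100 reads, and in 1 of 2 against the deepest host transcript. The log2 ratio of Snhg12 was reversed to -0.22 with TMM scaling, to -0.17 with the reduced totals and to -0.099 for its deepest transcript. The hosts' median log2 ratio stayed above 0 under every alternative run, from 0.43 with TMM scaling to 1.0 with the deepest transcripts. The changes with scaling follow from a shift common to all RNAs, and with at least 100 reads fewer RNAs were compared. The lower minimum and the pseudocount changed together, and their parts were not separated. Depth limits Snhg3, Snhg6 and Snhg12, with 85 to 100 reads each in both libraries together.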
